A study of Rattus norvegicus with 4 samples.

Results

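The NR4A family of orphan nuclear receptors has 3 members, Nr4a1 (also called Nur77), Nr4a2 (Nurr1) and Nr4a3 (NOR-1), and all 3 were measured among the 18644 named genes of the rat arrays. They were found by gene symbol, and each had 1 probe set, matched through its transcript accession and with no cross-hybridization mark in the deposited annotation. The data come from INS-1, an insulin-secreting cell line grown from an insulinoma of NEDH rats and kept in RPMI medium with serum. Cells received 10 µM forskolin, which activates adenylyl cyclase and so raises cAMP, dissolved in DMSO, or DMSO alone as vehicle, for 2 h or 16 h. A single Affymetrix rat gene array represents each of the 4 groups, and so no difference at a single time has a replicate check or a p-value. Levels are the authors' RMA signals on the log2 scale, and a difference of 1 is a 2-fold change. Nothing in the labels says that cultures were replicated, and a single line may not stand for beta cells in the islet.

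NR4A receptors are transcription factors whose ligand-binding pocket is filled by bulky side chains, so their output is set mainly by how much of the protein is made and how it is modified. Their genes are immediate-early genes: cAMP, calcium and growth signals switch them on without new protein synthesis, through CREB and its CRTC coactivators and through MEF2 factors, and their transcripts are short-lived. As monomers they bind the NBRE, AAAGGTCA, and Nr4a1 and Nr4a2 also pair with the retinoid X receptors. In rat beta cells Nr4a1 and Nr4a3 have been placed downstream of Nkx6-1 in the control of proliferation.

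The start-site windows of Nr4a1 and Nr4a2 are shown because CREB binds the cAMP response element (CRE), whose full form is TGACGTCA and whose half-site is TGACG. Both are RefSeq sequences of build GRCr8 in the direction of transcription, running from 250 bases before the annotated start to 50 bases from it. The Nr4a1 window is chr7:134259888-134260187 on the plus strand and the Nr4a2 window chr3:62104838-62105137 on the minus strand. Capitals mark the CRE half-site on either strand, which reads CGTCA when it lies on the opposite strand.
Nr4a1: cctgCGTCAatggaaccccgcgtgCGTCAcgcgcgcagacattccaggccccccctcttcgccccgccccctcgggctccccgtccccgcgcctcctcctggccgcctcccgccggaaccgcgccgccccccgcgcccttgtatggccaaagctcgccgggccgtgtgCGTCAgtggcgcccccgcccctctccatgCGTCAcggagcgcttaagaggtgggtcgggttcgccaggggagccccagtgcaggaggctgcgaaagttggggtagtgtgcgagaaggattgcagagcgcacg
Nr4a2: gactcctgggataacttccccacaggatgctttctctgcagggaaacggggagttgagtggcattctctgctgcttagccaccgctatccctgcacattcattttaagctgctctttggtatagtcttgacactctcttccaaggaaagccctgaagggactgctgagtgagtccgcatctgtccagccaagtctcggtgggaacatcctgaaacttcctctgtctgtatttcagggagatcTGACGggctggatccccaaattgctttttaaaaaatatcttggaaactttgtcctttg

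The Nr4a1 window held 4 CRE half-sites, from bases -246, -226, -82 and -53 relative to the annotated start, all on the opposite strand. Of 33469 windows of the same length, 21.2% held at least 1 half-site and 0.236% held 4 or more. In the Nr4a1 window each of the 4 half-sites is the end of the same longer run, TGCGTCA, a motif searched only after the sequence had been read. That run occurred at least once in 1.90% of windows on either strand, and 1 of the 33469, that of Nr4a1, held 4 or more copies. The Nr4a2 window held 1 half-site, at base -8. Neither window held the full CRE (1.83% of windows), the NBRE (1.43%), the nuclear receptor half-site AGGTCA (16.2%) or the TATA motif TATAAA (14.2%). The GC box GGGCGG, present in 33.1% of windows, had 3 matches in that of Nr4a1, and GC content was 72.3% there, 48.7% for Nr4a2 and 51.7% in the median window. All motifs were searched on both strands, and the half-site CGTCA lies within the longer run, so those matches are the same bases. A match of letters is no measured binding site, and these windows leave out more distant elements.

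**Figure D1:**
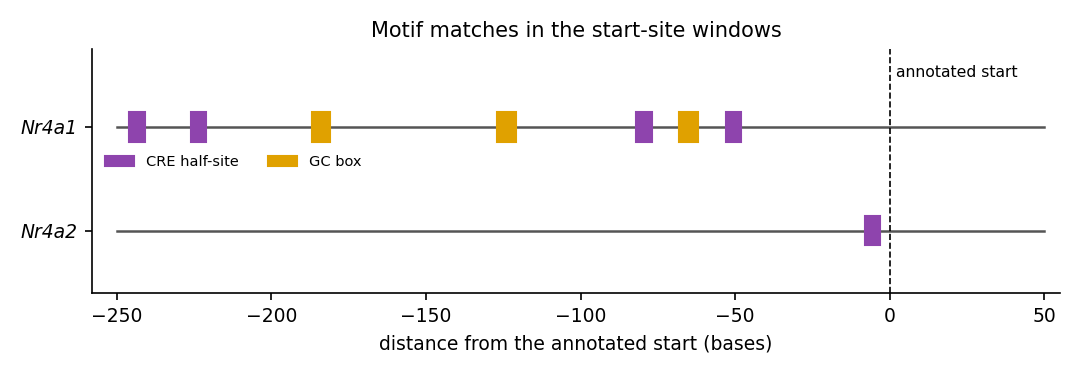
Matches to the CRE half-site and the GC box along the start-site windows of Nr4a1 and Nr4a2, by distance in bases from the annotated start (dashed line). The 4 half-sites of Nr4a1 lie as a pair near the upstream end of the window and a pair nearer the start, while the 1 half-site of Nr4a2 lies next to it.

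All 3 NR4A transcripts stood far above vehicle after 2 h of forskolin. Nr4a1 had a log2 signal of 6.80 with vehicle and 9.41 with forskolin at 2 h, and of 6.81 with vehicle and 8.35 with forskolin at 16 h. Nr4a2 had 5.30 and 8.40 at 2 h, and 4.85 and 6.65 at 16 h. Nr4a3 had 3.91 and 7.73 at 2 h, and 3.70 and 4.996 at 16 h. For each gene the order was the same: the 2 h forskolin array was highest, the 16 h forskolin array second, and the vehicle arrays lowest.

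At 2 h the forskolin minus vehicle differences were 3.82 for Nr4a3 (14.2-fold), 3.10 for Nr4a2 (8.55-fold) and 2.61 for Nr4a1 (6.10-fold). Among the 9322 genes above the expression filter those of Nr4a2 and Nr4a1 were the 11th and 22nd highest. The filter keeps a gene whose highest signal over the arrays reached the median of that quantity, 4.85. All 3 members passed it, Nr4a3 through its forskolin signals alone, so a difference was built into its passing and its rank is not given. All 3 members were at least 2-fold higher. The share of these genes at that size was 2.09%, and for the same reason it can be set beside Nr4a1 and Nr4a2 only. RNA was extracted from whole cultures, so more RNA per cell and a larger share of expressing cells cannot be told apart.

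The starting levels of the family differed in how far they stood from background. On the vehicle arrays 3.73% (2 h) and 4.42% (16 h) of the 1153 negative control probe sets were at or above the Nr4a1 signal. For Nr4a2 the shares were 12.7% and 17.6%. For Nr4a3 they were 35.2% and 39.4%, so its transcript was not set apart from background without forskolin, and its fold depends on the level taken as 0. With forskolin the share for Nr4a3 was 2.17% at 2 h and 15.9% at 16 h, and for Nr4a1 and Nr4a2 it lay between 1.13% and 4.16% at both times.

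**Figure D2:**
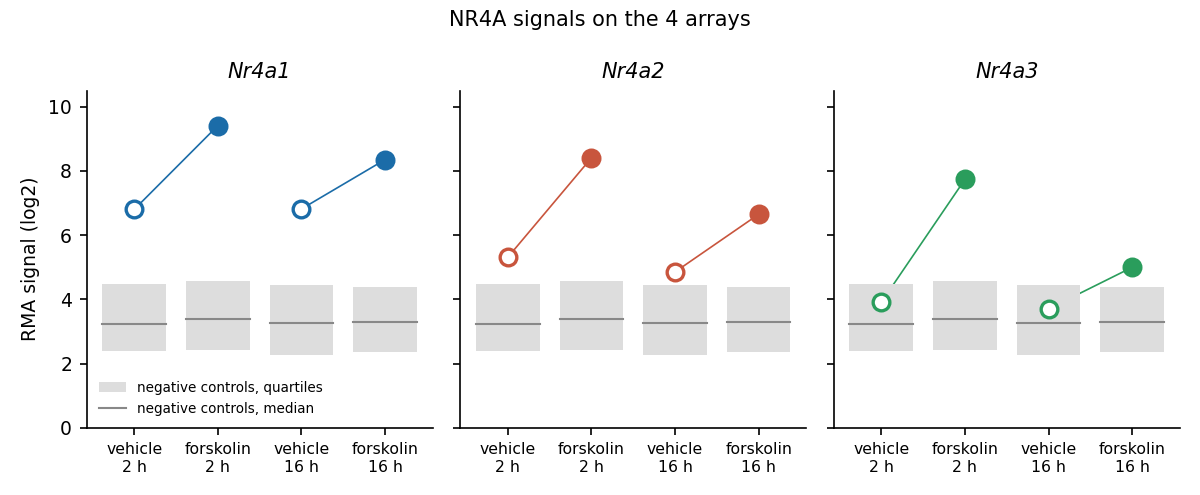
RMA signals (log2) of the 3 NR4A genes on each of the 4 arrays, with open circles for vehicle and filled circles for forskolin. Grey bars span the quartiles of the negative control probe sets and grey lines mark their medians; the vehicle signals of Nr4a3 lie inside the bars and those of Nr4a1 well above them.

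After 16 h all 3 were still above the vehicle array of that time, by smaller amounts. The differences were 1.80 for Nr4a2 (3.47-fold), 1.54 for Nr4a1 (2.90-fold) and 1.29 for Nr4a3 (2.45-fold), with Nr4a2 and Nr4a1 ranking 44th and 74th. The share of genes past 2-fold upwards was 2.33% at that time and 0.654% at both times together. Nr4a1 and Nr4a2 passed 2-fold at both times and can be set beside these shares. Nr4a3 did so too, but it entered the filter through forskolin alone and is not compared with them. The authors' deposited table gives the same folds for the 3 genes at both times.

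The forskolin signal itself was lower at 16 h than at 2 h in each gene. It was 6.66-fold lower for Nr4a3, 3.37-fold for Nr4a2 and 2.08-fold for Nr4a1. A fall of 2-fold or more between these arrays was seen in 2.76% of the 9322 kept genes. Only Nr4a1 and Nr4a2 can be set beside this share. Nr4a3 was kept through forskolin alone, so a high forskolin signal was built into its passing. Put as linear signal, 15.0% of the 2 h forskolin level of Nr4a3, 29.7% of that of Nr4a2 and 48.1% of that of Nr4a1 was present at 16 h. The vehicle arrays moved far less: Nr4a1 differed by 0.02 between 16 h and 2 h, Nr4a3 by -0.21 and Nr4a2 by -0.45. Over all genes this vehicle difference had a median of -0.08 and an SD of 0.25, so the Nr4a2 value lay beyond that spread and the others within it.

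The forskolin minus vehicle difference was therefore smaller at 16 h than at 2 h by 1.07 log2 units for Nr4a1, with a 16 h minus 2 h value of -1.07. The corresponding values were -1.30 for Nr4a2 and -2.53 for Nr4a3. Those of Nr4a2 and Nr4a1 were the 103rd and 178th lowest of 9322 genes. The median of all genes was 0.12. With 1 array per group this difference between the times could not be tested.

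The order of the members in fold was not the same at the times. At 2 h Nr4a3 had the largest difference and Nr4a1 the smallest, and this order held under each treatment of the signals tried. At 16 h Nr4a3 had the smallest as deposited, but the largest once the median of the negative controls was subtracted from each array. With that subtraction the 16 h differences were 2.70 for Nr4a3 (6.48-fold), 2.23 for Nr4a2 (4.69-fold) and 1.62 for Nr4a1 (3.08-fold), and the 2 h differences 5.16 (35.8-fold), 3.44 (10.9-fold) and 2.71 (6.56-fold). Its remaining vehicle signal for Nr4a3 was 5.65 linear units at 2 h and 3.41 at 16 h, against 102 and 103 for Nr4a1. The change from 2 h to 16 h kept its sign in all 3 genes under the 6 treatments, with Nr4a3 between -2.65 and -2.46. Among these treatments, probe-set means and the series values repeat the deposited signals of these genes and could not alter sign or order.

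**Figure D3:**
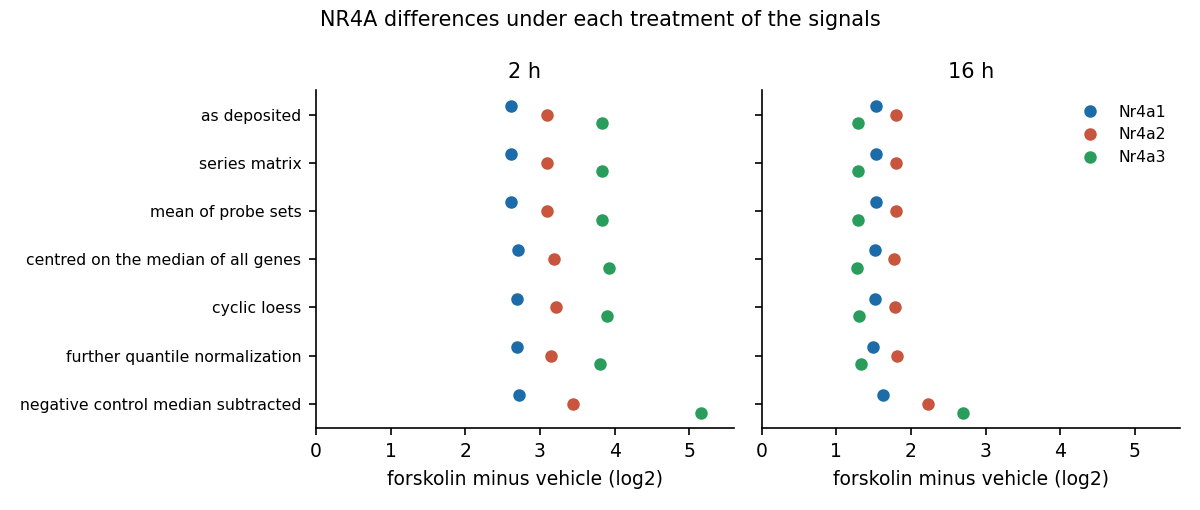
Forskolin minus vehicle differences (log2) of the 3 genes at 2 h (left) and 16 h (right) with the signals as deposited and under 6 other treatments, 1 row each. Subtracting the negative control median moves Nr4a3 from 3.82 to 5.16 at 2 h and from 1.29 to 2.70 at 16 h, and Nr4a1 least.

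The design allows 1 test, whether the mean of the differences at the times departs from 0, in a limma model that adds a treatment term to a time term. The mean difference was 2.07 for Nr4a1 (95% interval 1.51 to 2.64, adjusted p = 0.00563 in limma), with the forskolin array higher at both times. For Nr4a2 it was 2.45 (1.78 to 3.12, limma adjusted p = 0.00563) and for Nr4a3 2.56 (1.45 to 3.67, limma adjusted p = 0.0474). Because Nr4a3 passed the filter through forskolin alone, its p is no support for a difference; it was 0.245 in limma without the filter. Of all genes 0.976% passed as higher and 0.247% as lower. The error term comes from how far the 2 h and 16 h differences disagree. It has 1 residual degree of freedom for each gene and 8.01 from a prior over all genes. A forskolin difference that changes between the times therefore counts as error. No spread between replicate arrays or cultures is measured, and the intervals and p-values do not speak to it. The calls were not stable: under 7 alternatives the adjusted p ranged from 0.000135 to 0.139 for Nr4a1 (below 0.05 in 2), from 0.00079 to 0.237 for Nr4a2 (below 0.05 in 2) and from 0.0535 to 0.386 for Nr4a3 (below 0.05 in 0), while the mean difference stayed positive.

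**Figure D4:**
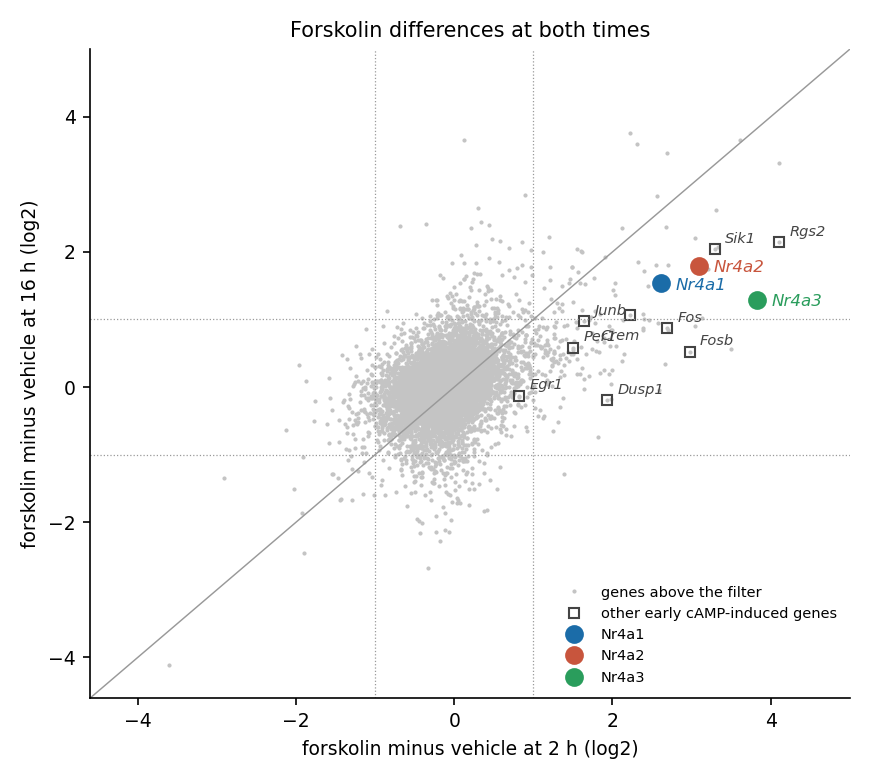
Forskolin minus vehicle differences (log2) at 2 h (x axis) and 16 h (y axis) of the 9322 genes above the filter, with the NR4A genes and 9 other early cAMP-induced genes marked. Dotted lines mark 2-fold and the solid line equal differences; the 3 NR4A genes lie beyond 2-fold at both times and below the line.

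No other nuclear receptor gene above the filter reached the differences of Nr4a1 and Nr4a2. Of 45 others listed, 41 were measured and 18 passed the filter. At 2 h 0 of these 18 were at least 2-fold higher and 1 was at least 2-fold lower. At 16 h 0 were higher and 0 lower. Among all genes 2.09% were higher and 1.41% lower at 2 h, and 2.33% and 2.02% at 16 h. With shares this small, 0 of 18 does not set the other receptors apart. Their median difference was 0.08 at 2 h and 0.17 at 16 h, beside medians of -0.10 and 0.02 over all genes. Among the 21 receptors above the filter, family included, the highest value outside the family was 0.63 at 2 h (Rxra) and 0.94 at 16 h (Esrra). Nr4a1 had 2.61 and 1.54, and Nr4a2 3.10 and 1.80. Nr4a3 passed the filter through forskolin alone, so its 3.82 and 1.29 are not compared. Outside the family the receptor beyond 2-fold was Nr1d1, the clock repressor REV-ERBα. Its signals were 5.73 and 4.48 at 2 h and 5.72 and 6.33 at 16 h. The difference was -1.25 and then 0.61. At 2 h with forskolin its signal fell short of 4.57, the upper quartile of control probe sets, and the size of the first difference is not exact. Esrra, a regulator of mitochondrial genes, had differences of 0.19 and 0.94, Hnf4a, a liver and beta-cell factor, -0.88 and -0.47, and Nr0b2, a corepressor without a DNA-binding domain, 0.33 and 0.68. In limma 0 of the 18 passed in either direction, where an adjusted p above 0.05 does not show that they did not differ.

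**Figure D5:**
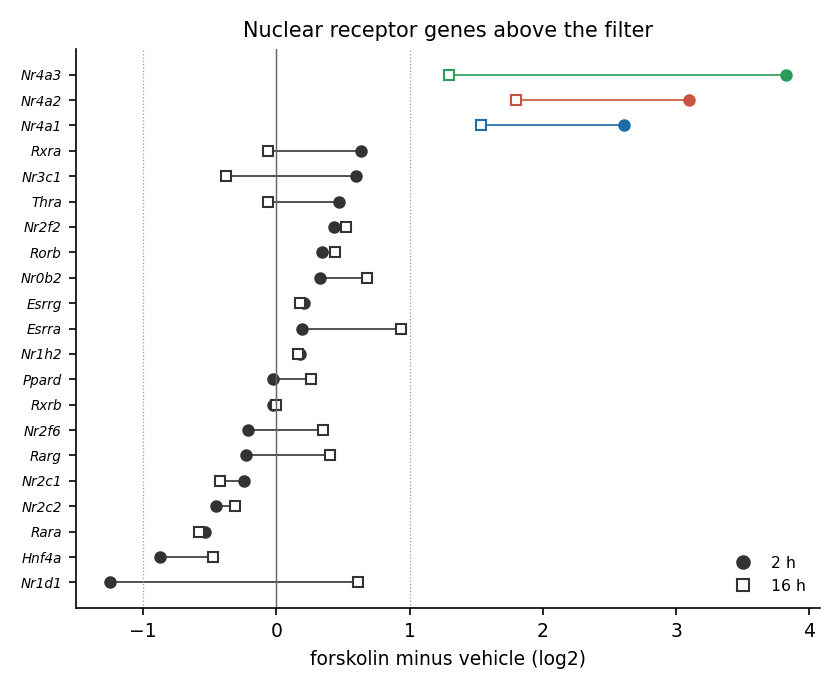
Forskolin minus vehicle differences (log2) of the 21 nuclear receptor genes above the filter, with filled circles for 2 h and open squares for 16 h, ordered by the 2 h value; dotted lines mark 2-fold. The 3 NR4A genes stand to the right of all others at both times, but Nr4a3 passed the filter through forskolin alone and is not compared.

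Among upstream regulators of the family, 13 of 19 measured passed the filter. Crem, whose products include cAMP-responsive activators and the repressor ICER, was the 1 gene at least 2-fold higher at either time, with differences of 2.22 and 1.07 and a mean of 1.64 (SE 0.26, limma adjusted p = 0.019). None was 2-fold lower. The shares over all genes were 2.09% higher and 1.41% lower at 2 h, and 2.33% and 2.02% at 16 h. Creb1 had -0.19 and -0.41, and the CRTC coactivator genes Crtc2 and Crtc3, which carry the cAMP signal to CREB, had -0.89 and -0.71 at 2 h and -0.17 and -0.09 at 16 h. Crtc3 passed the filter through its 2 h vehicle signal alone, so a lower forskolin signal was built into its being kept. Hdac5, a repressor of MEF2, had 0.06 and -0.45. The list's median was -0.19 at 2 h and -0.09 at 16 h.

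Of 18 partners and modifiers measured, 17 passed the filter. Ppargc1a, a coactivator of many nuclear receptors, had signals of 5.08 with vehicle and 7.75 with forskolin at 2 h, and of 4.79 and 7.16 at 16 h. Its difference, 2.68 and then 2.37, changed by -0.31 between the times, against -1.07 to -2.53 in the NR4A genes, and its mean was 2.52 (limma adjusted p = 0.00142). The retinoid X receptors that pair with Nr4a1 and Nr4a2 stayed within 2-fold: Rxra had 0.63 and -0.07, Rxrb -0.03 and -0.01, and Rxrg, below the filter, 0.13 and -0.19. Mapk7, a kinase gene upstream of MEF2 factors, had -1.22 and 0.09, with a 2 h forskolin signal of 4.25 that lay within the quartiles of the negative controls. Bcl2, whose product is bound by Nr4a1 protein in human cells, had -0.77 and -0.17. The list's median was -0.17 at 2 h and 0.04 at 16 h.

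Of 9 beta-cell genes tied to the family that passed the filter, 0 were at least 2-fold higher with forskolin at either time. At least 2-fold lower were 3 at 2 h and 0 at 16 h. Nkx6-1 is among the 3 but passed the filter through vehicle alone, so being lower was built into its passing. Among all genes 2.09% were higher and 1.41% lower at 2 h, and 2.33% and 2.02% at 16 h. Of the 3 lower at 2 h, only Foxo1 and Ccne1 can be set beside the 1.41%. With shares this small, 0 of 9 higher does not set the listed genes apart. Their medians were -0.32 and -0.24, beside -0.10 and 0.02 over all genes. Nkx6-1, which lies upstream of Nr4a1 and Nr4a3 in rat islets, had signals of 5.43 and 3.84 at 2 h and of 4.87 and 4.04 at 16 h, a difference of -1.59 and then -0.83, with its forskolin signals among the negative controls. Foxo1 had -1.33 and -0.30, and the cyclin gene Ccne1 -1.08 and -0.48. E2f1 and Ube2c, cell-cycle genes raised by Nr4a1 and Nr4a3 in rat islets, had -0.17 and -0.32 at 2 h and -0.61 and -0.04 at 16 h. Ins1 had 0.01 and -0.09 and Ins2 -0.02 and -0.24, at signals of 12.08 or more, near the top of the array's range. None of the 9 passed in limma.

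Genes described as NR4A targets in other tissues were mostly too low to compare, with 7 of 31 measured above the filter. Ccnd1, the cyclin D1 gene, had signals of 3.90 and 7.21 at 2 h and of 3.77 and 6.40 at 16 h, differences of 3.31 and 2.63. Its vehicle signals lay near those of Nr4a3 and of the negative controls, and it passed the filter through forskolin alone, so these sizes are not exact. Bcl2l11, which encodes the death protein BIM, had 1.41 and 0.43. Ddc, the aromatic amino acid decarboxylase of serotonin and dopamine synthesis, had -0.26 and -1.27, from 8.02 with vehicle to 6.75 with forskolin at 16 h. Slc2a4, a glucose transporter gene, had -0.63 and -0.69. It passed the filter through vehicle alone, so a lower forskolin signal was built into its being kept. The steroidogenic and dopaminergic genes Star, Cyp17a1, Th and Slc6a3 had no signal above 3.99 on any array. The list's medians over the 7 were 0.10 and -0.34.

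Other early cAMP-induced genes, a list picked for that behaviour, give a scale for the fall by 16 h. Rgs2, a brake on G protein signalling, had 4.10 and 2.14, Sik1, a kinase that restrains CRTC, 3.29 and 2.04, Fosb 2.98 and 0.53, and Fos 2.69 and 0.87. The 2 h vehicle signals of Fos (3.18) and Fosb (3.48) lay at the level of the negative controls, as that of Nr4a3 did, and both passed the filter through forskolin alone. A signal at least 2-fold above vehicle was reached by 8 of the 9 at 2 h and by 3 at 16 h, with medians of 2.22 and 0.87. The shares over all genes were 2.09% and 2.33%. Fos and Fosb are among the 8 at 2 h, and their higher signal was built into being kept. That count is therefore not compared with the share. In limma 4 of 9 passed as higher, beside 0.976% of all genes, and neither Fos nor Fosb was among them. The 16 h minus 2 h values of the 9 ran from -2.45 (Fosb) to -0.66 (Junb). Those of Sik1 (-1.26) and Crem (-1.15) lay near those of Nr4a1 and Nr4a2, and that of Fosb near that of Nr4a3. With a range this wide, near values do not show a shared course.

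Likeness of pattern was measured as the Euclidean distance between log2 signals over the 4 arrays, each gene centred on its mean. Nearest to Nr4a1 were the chemokine receptor gene Ackr3 (distance 0.15), the adaptor gene Nedd9 (0.23), the ADP-ribosyltransferase gene Tiparp (0.26), the zinc finger gene Giot1 (0.40) and the LIM-only gene Lmo1 (0.43). Nearest to Nr4a2 were the small GTPase gene Diras2 (0.14), Sik1 (0.23), Nedd9 (0.60), Tiparp (0.64) and the substance P precursor gene Tac1 (0.65), followed by Nr4a1 as 6th and Nr4a3 as 8th. Nearest to Nr4a3 were the somatostatin receptor gene Sstr1 (0.54), the actinin gene Actn2 (0.64), Sik1 (0.72), Nr4a2 (0.72) and Diras2 (0.73). Sstr1 (vehicle signals 4.62 and 4.11), Actn2 (3.77 and 3.47) and Tac1 (4.42 and 4.55) passed the filter through forskolin alone, as Nr4a3 did. Only kept genes were compared, so a higher forskolin signal was built into finding these 3. Nr4a1 and Nr4a3 were the least alike within the family, at 1.29. With 4 arrays these distances are a description, and over the 2 differences alone 3 of 5 genes were shared for Nr4a1 and 3 of 5 for Nr4a2.

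The labelled cell type was checked against its markers. All 8 beta-cell markers measured passed the filter, with Ins1 at 13.2 to 13.3, but so did 17.6% to 21.2% of the negative controls. Above the controls' 95th percentile were 6 of the 8 on all 4 arrays, Mafa on 3 and Nkx6-1 on 0. Of other islet hormones Gcg was high, at 11.8 to 12.6, while Sst, Ppy and Ghrl, and all 9 exocrine, duct, leukocyte, fibroblast and endothelial markers measured, stayed below the filter.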

How the data were processed

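Total RNA of INS-1 cells was measured on 4 arrays, 1 per group. Per the file headers, the authors deposited RMA signals per gene on the log2 scale (background correction, quantile normalization, probe summary); Affymetrix Expression Console 1.1.1 is named in the submitters' processing notes. A linear fold of forskolin over vehicle, also deposited by the authors, was compared with the differences computed here. A column dividing log2 signals was not used. Precision is limited by the number of arrays.

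Of 29214 probe sets, 20411 carried a gene symbol, brought up to date with RefSeq names (assembly GRCr8): 14564 matched by accession, 2840 by symbol, 1127 by synonym and 1880 were kept as deposited. The brightest probe set stood for a gene. Genes with a highest signal of at least 4.85, the median, were kept (9322 of 18644). A low gene could therefore pass through forskolin alone or through vehicle alone. At least 2-fold was counted. The test was limma 3.58.1 in R 4.3.3 (additive treatment and time, eBayes with trend, Benjamini-Hochberg over kept genes), tested on simulated data. Named are the members, up to 4 kept genes per list with the largest difference, the 5 nearest genes per member, and Rxra, Rxrb, Rxrg, Crem, Crtc2, Nkx6-1, E2f1, Ube2c, Ins1, Ins2 and Fos. Creb1, Star, Cyp17a1, Th and Slc6a3, the cell type markers and genes named for a motif were named after their values were seen. A gene that meets the rule is not reported here. Members and lists were chosen with earlier results of these data known. Alternatives were other scalings, centring, probe-set means, the series value table, background subtraction, filters, a 1.5-fold threshold, and other priors and model terms.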

Additional observations from a re-analysis of the deposited data

Results flagged for a closer look

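Of 39 genes named beside the family, 6 had opposite signs at the times, a difference that was not tested. The log2 differences at 2 h and 16 h were -1.25 and 0.61 for Nr1d1, -1.22 and 0.085 for Mapk7, 0.63 and -0.067 for Rxra, 0.13 and -0.19 for Rxrg, 0.059 and -0.45 for Hdac5 and 0.014 and -0.085 for Ins1. Only for Nr1d1, among these 6, did both exceed 0.25, the SD of the vehicle difference over genes. The differences of Nr4a1, Nr4a2 and Nr4a3 were positive at both times.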

How the results depend on the processing

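For the 3 NR4A genes every difference at 2 h and 16 h, and every change between the times, kept its sign under the 6 treatments of the signals. Among these, probe-set means and the series values could not change the result. Each gene had 1 probe set, and the series values are the same signals to rounding. Values that moved by more than 0.25 did so with the negative control median subtracted: 3.44 (Nr4a2) and 5.16 (Nr4a3) at 2 h, 2.23 and 2.70 at 16 h, and -0.73 for the Nr4a3 vehicle difference. The limma adjusted p of Nr4a1, Nr4a2 and Nr4a3 became 0.0661, 0.0668 and 0.245 without the filter, 0.114, 0.237 and 0.386 without the time term, 0.0565, 0.0515 and 0.184 without a trend in the prior, 0.139, 0.139 and 0.274 after cyclic loess and 0.0639, 0.0524 and 0.183 after a further quantile normalization; that of Nr4a3 was 0.152 under the stricter filter and 0.0535 with probe-set means. Genes called higher numbered 19, 11, 32, 1 and 32 under the first 5 of these and 138 under the stricter filter, against 91, and genes called lower 3, 1, 6, 1, 8 and 68, against 23. The cause was not tested. Of 62 genes above the filter over the 5 pathway lists, 4 were at least 2-fold higher and 5 lower at 2 h, and 3 and 1 at 16 h. The shares over all genes were 2.09% and 1.41% at 2 h, and 2.33% and 2.02% at 16 h. Among those higher was Ccnd1, which passed the filter through forskolin alone. Among those lower at 2 h was Nkx6-1, which passed through vehicle alone, so these counts are not compared with the shares. List genes lower at 2 h numbered 2 under the stricter filter and 11 at 1.5-fold. At 16 h those higher numbered 6 and those lower 5 at 1.5-fold. Signals near the negative controls, above all Nr4a3 with vehicle, limit the folds.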

Other observations

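The NBRE, AAAGGTCA, to which NR4A monomers bind, was searched in the start-site windows of the listed genes. It was present in 0 of 8 windows of beta-cell genes tied to the family, 0 of 38 of other nuclear receptors and 2 of 22 of targets described in other tissues, Cyp21a1 and Ddc, where 1.43% of all windows held it. Of these, Cyp21a1 stayed below the filter, and Ddc had log2 differences of -0.26 at 2 h and -1.27 at 16 h. The CRE half-site TGACG was present in 6 of 8 windows of the other early cAMP-induced genes, those of Junb, Egr1, Crem, Sik1, Dusp1 and Rgs2. It was present in 7 of 14 windows of partners, 6 of 16 of upstream regulators, 3 of 8 of beta-cell genes, 6 of 22 of targets and 9 of 38 of other nuclear receptors, where 21.2% of all windows held it. The full CRE, in 1.83% of all windows, was present in 1 of 8 windows of the early genes (Dusp1), 1 of 14 of partners (Ppargc1a), 1 of 8 of beta-cell genes (Sdhb), 3 of 22 of targets (Th, Slc18a2 and Ptpru), 2 of 38 of other nuclear receptors (Nr2e1 and Nr6a1) and 0 of 16 of upstream regulators. Dusp1 and Ppargc1a were at least 2-fold higher at 2 h, Sdhb had a log2 difference of -0.14, Th, Slc18a2, Ptpru and Nr6a1 lay below the filter, and Nr2e1 was not analysed here.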
